A study of Mus musculus with 16 samples.

Results

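The 2 strands of miR-21, a microRNA (miRNA) known from injured and inflamed vessels, were followed through the repair of wire-injured mouse carotid artery. The array carried them under the names mmu-miR-21 and mmu-miR-21*, and they were taken by an exact match of these names, so 2 of the 611 mouse miRNAs on the array are described here. The strand written without a mark is the guide strand and the strand with the asterisk is the passenger strand. miR-21 rose after injury and stayed high to day 28, whereas miR-21* came up from below background and, after scaling of the arrays, was lower at day 28 than at day 1 and day 7.

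A miRNA gene is transcribed into an RNA that folds back into a hairpin. Drosha and Dicer cut the hairpin to a short duplex, an Argonaute protein keeps the guide strand to find target mRNAs, and most of the passenger strand is usually degraded. Target choice rests largely on the seed, a short stretch near the 5′ end of the loaded strand. In smooth muscle cells and fibroblasts miR-21 is known for repressing Pdcd4, a tumour suppressor. In mouse heart, miR-21* has been described as a cargo of vesicles from fibroblasts.

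Both mature strands are shown because the results turn on them, each 5′ to 3′ with the seed, bases 2 to 8, in capitals. Sequences and positions are those of RefSeq for mouse build GRCm38.p6, where the strands are named mmu-miR-21a-5p and mmu-miR-21a-3p.
mmu-miR-21: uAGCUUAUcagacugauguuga
mmu-miR-21*: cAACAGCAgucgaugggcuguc
The guide lies at chr11:86584120-86584141 and the passenger at chr11:86584082-86584103, both on the minus strand. The hairpin they are cut from, chr11:86584067-86584158, is 92 bases long, and capitals mark the 2 mature strands in it.
Mir21a hairpin: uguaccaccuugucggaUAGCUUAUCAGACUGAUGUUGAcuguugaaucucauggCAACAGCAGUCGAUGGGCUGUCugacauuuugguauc
In the structure of lowest free energy that RNAfold predicted for the hairpin (-46.2 kcal/mol), 19 of the 22 bases of the guide paired with the passenger, among them all 7 of its seed. The hairpin lies within the annotated span of Vmp1 (chr11:86583858-86683836), a gene for a membrane protein of autophagy, and 209 bases from the nearer end of that span. The next gene outside that span was Tubd1, a tubulin gene, at a distance of 12459 bases.

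In the same table of mature mouse miRNAs 1 other entry had the guide's seed, mmu-miR-21c at chr8:128278188-128278208 (minus strand), and 0 others had the passenger's. mmu-miR-21b at chr3:29636768-29636790 (plus strand) is named after miR-21 but carries C4U within the seed, with positions counted from 1 at the 5′ end of the guide. Both are shown because their RNA resembles the guide, with bases 2 to 8 again in capitals.
mmu-miR-21b: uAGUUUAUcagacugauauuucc
mmu-miR-21c: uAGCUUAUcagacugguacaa
Over their common length miR-21b also carries G18A, G21U and A22C, and miR-21c carries A16G, G18A, U19C, U20A and G21A. Neither has a name on this array, and whether the miR-21 probes also bound their RNA was not tested. miR-590-5p, also known as a seed mate of miR-21, was on the array but stood well above background on 0 of 16 arrays (intensity -1.77 to 1.66).

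The samples were carotid arteries of female ApoE-/- mice on a C57BL/6 background, which lack apolipoprotein E in every group, controls included, and were kept on western-type diet. The groups were uninjured arteries (n = 3) and arteries taken 1 day (n = 3), 7 days (n = 3), 14 days (n = 3) and 28 days (n = 4) after injury with a wire. The labelled age was 8 weeks for the day 1 mice and 6 to 8 weeks for all other groups. The labels do not say whether the uninjured arteries came from injured mice or from separate animals, and a sham operation is not among the groups. Total RNA of each artery (700 ng) received a Cy3 label and went onto an Agilent array of its own.

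Between 251 and 335 miRNAs stood well above background on an array, and 321 were tested. The arrays lay on 2 slides. Slide 1 held day 1, day 7 and replicates 1 and 2 of day 28, and slide 2 held the uninjured arrays, day 14 and replicates 3 and 4 of day 28. Day 14 against uninjured and day 7 against day 1 are therefore comparisons within a slide, whereas day 1 and day 7 differ from uninjured in slide as well. Contractile smooth muscle miRNAs (miR-143, miR-145) and endothelial miR-126-3p stood well above background on all 16 arrays, while miR-145* did so on 0. In tissue RNA of this kind, fewer cells of a type and less RNA per cell cannot be told apart.

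The guide strand was bright on every array. The mean intensity of its brightest probe, printed on 10 spots per array, was 4592, 5972 and 5236 on the uninjured arrays. It was 33919, 32304 and 27062 at day 1 and 87572, 73792 and 81421 at day 7. At day 14 it was 53546, 55920 and 73879, and at day 28 it was 44647, 69532, 59555 and 38685. Each of the 13 injured arrays lay above each of the 3 uninjured ones.

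The arrays differed in overall brightness, so each was scaled to its own 75th percentile over the 395 probes seen on all arrays, which ran from 401 to 1432 intensity units. On this scaled log2 scale, which is used from here on, miR-21 stood at 3.52, 3.47 and 3.07 on the uninjured arrays. It stood at 5.81, 5.41 and 5.81 at day 1, at 6.17, 6.50 and 6.33 at day 7 and at 6.69, 6.28 and 5.69 at day 14. At day 28 the 4 arrays lay within 5.93 to 6.09, the tightest of the groups (SD 0.08). Day 14 replicate 3, the brightest array of the set by its 75th percentile, had the highest day 14 intensity of miR-21 but the lowest day 14 value after scaling.

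**Figure D1:**
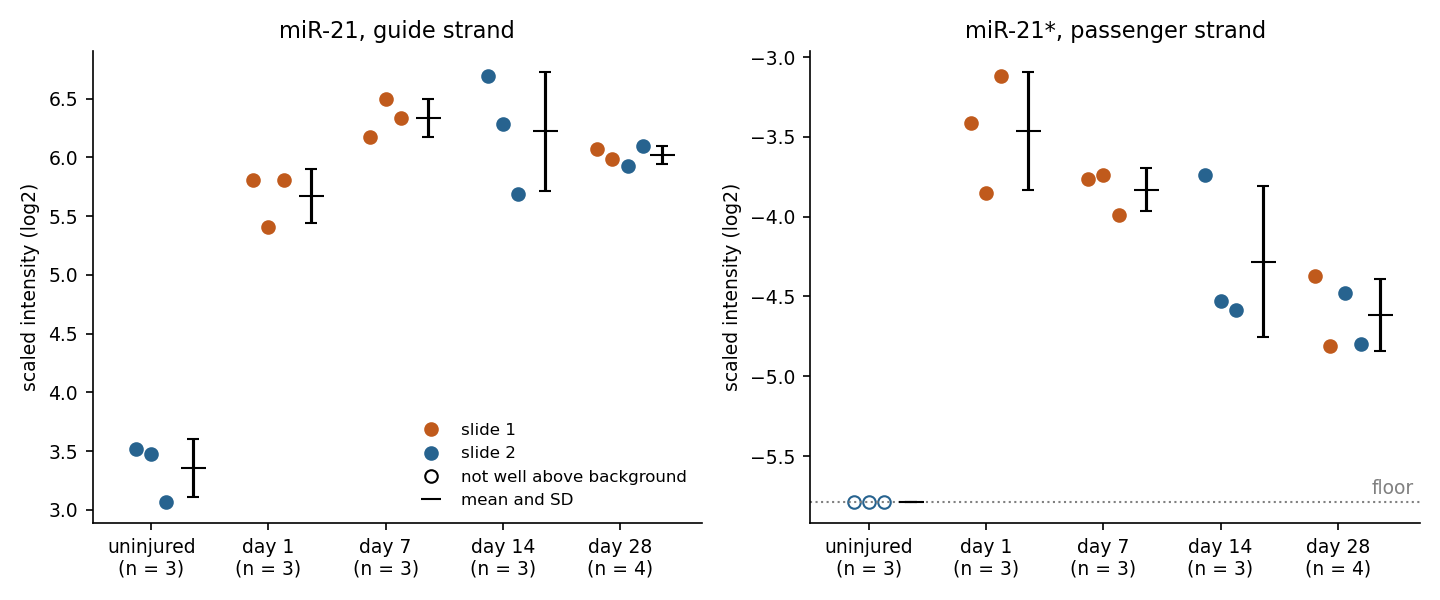
Scaled log2 intensity of miR-21 (left) and miR-21* (right) on each of the 16 arrays by group, coloured by slide, with the group mean and SD in black. All injured arrays lie above the uninjured ones for both strands, miR-21* is not well above background on the 3 uninjured arrays, which sit at the floor of -5.79, and on this scale its day 28 values lie below those of day 1 and day 7.

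Against uninjured artery miR-21 was 4.99-fold higher at day 1 (log2 difference 2.32 ± 0.22 SE, 3 arrays in each group, adjusted p = 4.99e-06 by limma), where 32.4% of all tested miRNAs were called. It was 7.90-fold higher at day 7 (log2 2.98 ± 0.22 SE, adjusted p = 2.48e-07 by limma), where 49.8% were called. It was 7.30-fold higher at day 14 (log2 2.87 ± 0.22 SE, adjusted p = 3.97e-07 by limma), where 39.3% were called, and this comparison lay within slide 2. At day 28 it was 6.35-fold higher (log2 difference 2.67 ± 0.20 SE, 4 and 3 arrays, adjusted p = 6.43e-07 by limma), where 26.2% were called. Of the 321 miRNAs tested, 7 had a higher difference from uninjured than miR-21 at day 1, and the number was 3 for day 7, 3 for day 14 and 2 for day 28. With all injured days together the mean difference was 2.71 on the log2 scale (13 and 3 arrays, exact permutation p = 0.00357, two-sided, the smallest that 560 arrangements can give). Within slide 2 it was 2.78 (5 and 3 arrays, exact permutation p = 0.0357, the smallest of 56). These 4 comparisons share the 3 uninjured arrays.

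Among the injured days the order of the miR-21 means was day 7 (6.33), day 14 (6.22), day 28 (6.02) and day 1 (5.67). Day 7 exceeded day 1 by log2 0.66 ± 0.22 (SE, adjusted p = 0.0268 by limma), where 43.3% of all miRNAs were called. The 3 arrays of each group did not overlap, but neither did those of day 28 with day 1 or with day 7. The other 5 pairs of days did not pass the threshold (10.3% of all miRNAs were called for day 14 against day 7 and 15.3% for day 28 against day 14), and neighbours in the order were at most 0.35 apart (day 28 minus day 1, 95% interval -0.10 to 0.79). The F test over the 4 days did not pass either (adjusted p = 0.0754 by limma), whereas 56.7% of all miRNAs did. The call of day 7 over day 1 ended under quantile normalization (log2 0.25, adjusted p = 0.255 by limma), with no filter on dim miRNAs (adjusted p = 0.0528) and without any 1 of day 1 replicate 2, day 7 replicate 2 or day 7 replicate 3 (highest adjusted p = 0.104 by limma). Quantile normalization keeps only the rank of a probe on its array, so it can hide a change in size for a probe this bright.

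The passenger strand was dim. Its brightest probe read 1.66, -3.67 and 2.39 intensity units on the uninjured arrays, where it was not well above background on any of the 3. It read 56.8, 52.7 and 55.6 at day 1 and 89.4, 61.1 and 63.7 at day 7. At day 14 it read 38.9, 31.1 and 59.7, and at day 28 it read 32.1, 39.0, 43.9 and 20.4. It was well above background on all 13 injured arrays.

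After scaling, miR-21* stood at -3.42, -3.85 and -3.12 at day 1 and at -3.76, -3.74 and -3.99 at day 7. It stood at -3.74, -4.53 and -4.58 at day 14 and at -4.37, -4.81, -4.48 and -4.80 at day 28. The uninjured arrays were set to a floor of -5.79, the typical lowest signal well above background on an array. Their own lowest such signals were -5.07, -5.22 and -5.62, so a difference fitted at the floor is no bound. The day 28 arrays lay wholly below those of day 1 and day 7, while day 14 overlapped each of the other days.

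miR-21* was at least 3.58-fold higher than in uninjured artery at day 1 (adjusted p = 7.68e-06 by limma) and at least 2.78-fold higher at day 7 (adjusted p = 1.36e-05 by limma). It was at least 2.03-fold higher at day 14 (adjusted p = 2.39e-04 by limma) and at least 1.61-fold higher at day 28 (adjusted p = 0.00155 by limma). These bounds, for the brightest probe, set the group mean against each uninjured array's own lowest signal well above background, and the tests use the floor. The 3 uninjured values are all this floor, and miR-21* passed the filter for testing only through the injured groups. No injured value could lie below the floor, so the direction of these tests, and of the permutation test that follows, was fixed beforehand. All injured arrays together lay above the uninjured ones (13 and 3 arrays, exact permutation p = 0.00357, the smallest possible). With normexp background, which adds an offset of 50 units to signals of this size, none of the 4 calls was kept (log2 0.02 to 0.68, adjusted p = 0.160 to 0.953 by limma), and with a floor 2 times as high those at day 14 and day 28 ended (adjusted p = 0.110 and 0.638 by limma).

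Within the injured arteries the passenger was lower at the later days. Its mean fell by 1.15 ± 0.22 (SE) on the log2 scale from day 1 to day 28 (adjusted p = 0.00154 by limma), where 34.3% of all miRNAs were called. It fell by 0.82 ± 0.23 (SE) from day 1 to day 14 (adjusted p = 0.0119 by limma, 39.9% called) and by 0.78 ± 0.22 (SE) from day 7 to day 28 (adjusted p = 0.0120 by limma, 33.6% called). The differences of day 7 from day 1 (-0.37), of day 14 from day 7 (-0.45) and of day 28 from day 14 (-0.33) did not pass. Which of day 1 and day 7 was higher turned with the scaling: day 7 minus day 1 was 0.12 to 0.35 with the 75th percentile over all mouse probes, the median, quantiles and no scaling, none of them past the threshold (adjusted p = 0.485 to 0.733 by limma). The F test over the 4 days gave adjusted p = 0.00288 by limma. The size of the decline rested on the scaling: from day 1 to day 28 it was -0.58 with the 75th percentile over all mouse probes (adjusted p = 0.0782 by limma), -0.62 by quantiles (adjusted p = 0.0626) and -0.76 without scaling (adjusted p = 0.159), and none of these 3 passed. With slide as a block the fall from day 1 to day 14 (-0.78, adjusted p = 0.182 by limma) and from day 7 to day 28 (-0.76, adjusted p = 0.0520) no longer passed, and the former also ended without any 1 of day 1 replicate 3, day 14 replicate 2 or day 14 replicate 3 (highest adjusted p = 0.0556). For day 28 minus day 1 the median of all tested miRNAs was -0.15 on the main scale. It was 0.34 with the 75th percentile over all mouse probes, 0.00 by quantiles and 0.20 without scaling.

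**Figure D2:**
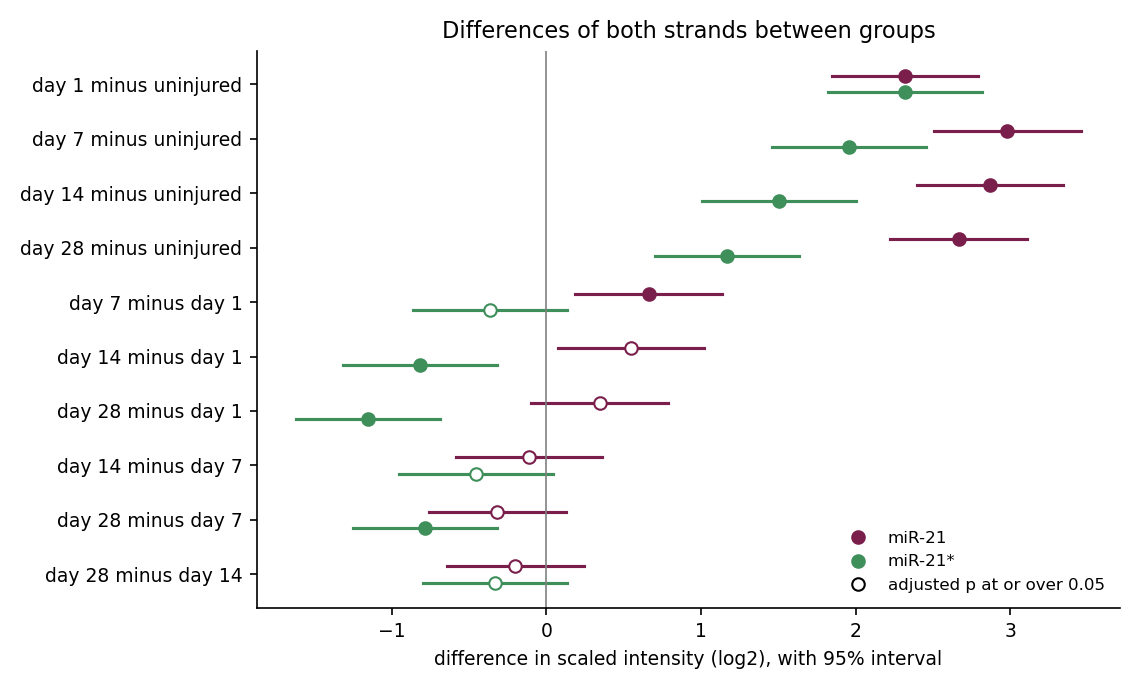
Differences in scaled log2 intensity of miR-21 and miR-21* for the 10 pairs of groups, with 95% intervals from limma; filled points passed an adjusted p under 0.05. miR-21 lies above 0 against uninjured at each day with little difference between days, and miR-21* lies above 0 against uninjured, where its values rest on the floor, and on this scale below 0 for later days against day 1 (day 7 minus day 1 did not pass and turned positive under 4 other scalings).

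The strand balance is the log2 intensity of miR-21 minus that of miR-21* on the same array. On the 13 injured arrays it does not depend on a scaling that divides each array by 1 number. Quantile normalization is no such scaling and can change it. On the uninjured arrays, with miR-21* at the floor, the balance moves with the scaling. Probes differ in brightness, so its level is no ratio of amounts, and only its change between groups is read. It was 9.22, 9.26 and 8.93 at day 1, 9.94, 10.24 and 10.32 at day 7, and 10.43, 10.81 and 10.27 at day 14. At day 28 it was 10.44, 10.80, 10.41 and 10.89. Each of the 10 arrays from day 7 on lay above the 3 arrays of day 1.

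From day 1 to day 7 the balance moved towards the guide by log2 1.03 ± 0.19 (SE, adjusted p = 0.00107 by limma), a comparison within slide 1. Among the 58 miRNAs with both strands tested, 51.7% were called in this comparison, and the median shift towards the strand named first was 0.54. From day 1 to day 14 it moved by 1.37 ± 0.19 (SE, adjusted p = 9.53e-05 by limma, 53.4% of pairs called) and from day 1 to day 28 by 1.50 ± 0.18 (SE, adjusted p = 4.90e-05 by limma, 44.8% called). Thus a change of the balance after day 1 was common among strand pairs on these arrays, and by size that of miR-21 ranked 20 of 58, 13 of 58 and 9 of 58. Day 14 and day 28 did not differ from day 7 or from each other beyond their spread (0.13 to 0.47, adjusted p = 0.0798 to 0.739 by limma; 12.1% of pairs were called for day 14 against day 7, 19% for day 28 against day 7 and 8.62% for day 28 against day 14).

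The 3 calls against day 1 were kept in all 7 alternatives planned for the balance, slide as a block among them, and when each array was left out in turn. None of these 7 varied the scaling, and the balance was not tested under quantile normalization. By quantiles miR-21 stood 0.25 above day 1 at day 7, 14 and 28, and miR-21* stood at 0.16, -0.25 and -0.62 from day 1. The shift towards the guide was thus smaller by quantiles at each of these days, and smallest at day 7. Quantiles keep only the rank of a probe on its array, and they gave miR-21 differences of 0 among these 3 days. A further rise of miR-21 cannot show there, so the smaller shift does not decide whether the balance depends on the scaling. With the other probe of the guide or of the passenger, an alternative chosen after seeing the data, the shift from day 1 was 1.16 to 1.71 at day 7, and it lay between 1.41 and 1.62 on the day 14 arrays and 1.49 and 1.56 on those of day 28. Against uninjured arrays the balance has no settled value, since the passenger was not well above background there. At the floor it was 9.30, 9.26 and 8.85, and its difference from these moved with the height of the floor.

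**Figure D3:**
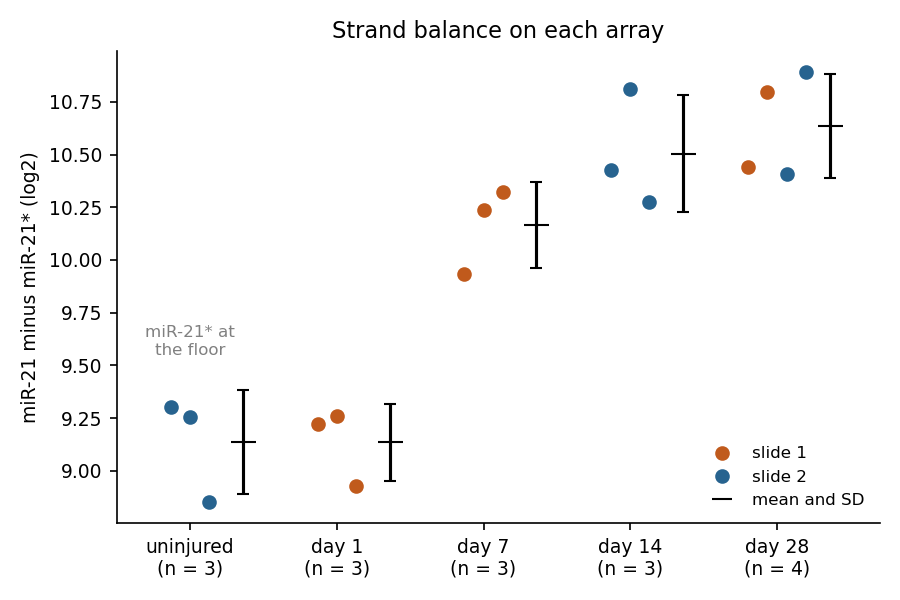
Strand balance (log2 miR-21 minus log2 miR-21*) on each of the 16 arrays by group, coloured by slide, with the group mean and SD in black. The 3 arrays of day 1 lie at 8.93 to 9.26 and the 10 later arrays at 9.94 to 10.89; the uninjured values rest on the floor of miR-21*.

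Among strand pairs, those with the smallest p of the balance at day 7 against uninjured were miR-434-5p and -3p (log2 1.50 ± 0.13 SE), miR-362-5p and -3p (1.31 ± 0.15), miR-34c and miR-34c* (1.88 ± 0.21), miR-154 and miR-154* (-2.54 ± 0.28) and miR-29b and miR-29b* (-1.31 ± 0.16). Here 43.1% of the 58 pairs were called. In 4 of the 5 pairs just named (all but miR-434), as in miR-21, a strand was not well above background on every array. The floor can enter such differences, but miR-362-5p stood above the floor on the uninjured arrays (-5.74, -5.62 and -5.21).

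Over the 13 injured arrays the deviations of the strands from their group means had Pearson r = 0.70 (permutation p = 0.118) and Spearman rho = 0.59 (permutation p = 0.131). Without day 1 replicate 2 and day 14 replicate 1, the injured arrays farthest from their median of miR-21, r was 0.057 (permutation p = 0.781, 11 arrays), so the value rested on these 2 arrays. With all 16 arrays r was 0.65 (permutation p = 0.118), but on the 3 uninjured ones miR-21* sat at the floor and its deviations were 0 by construction. No relation passed the threshold, and both strands share each array's scaling. The use of injured arrays alone was chosen after seeing the data.

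miR-21 was measured by 2 probes, and they did not give the same size of change. The brighter of them (A_54_P1307) gave the values above, and the second (A_54_P1308), well above background on all 16 arrays, gave larger differences. On the scaled log2 scale the second probe read -0.50, -0.54 and -0.95 on the uninjured arrays, 2.64, 2.04 and 2.32 at day 1 and 3.54, 3.54 and 3.53 at day 7. It read 3.23, 2.94 and 2.60 at day 14 and 2.64, 2.86, 2.66 and 2.52 at day 28. By this probe miR-21 was 7.99-fold higher than uninjured at day 1, 18.4-fold at day 7, 12.0-fold at day 14 and 10.1-fold at day 28 (log2 3.00 to 4.20, SE 0.18 to 0.19, highest adjusted p = 1.01e-07 by limma). It set day 7 more clearly apart, log2 1.20 ± 0.19 (SE) above day 1 (adjusted p = 2.28e-04 by limma) with day 28 below day 7 at -0.87 ± 0.18 (SE), a pair that did not pass by the brighter probe (adjusted p = 0.00211 against 0.286 by limma). Day 14 over day 1 also passed by the second probe (0.59, adjusted p = 0.0219 by limma).

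The ratio of the brighter to the second probe was 16.2 on each of the 3 uninjured arrays. It was 9.00, 10.3 and 11.2 at day 1, 6.22, 7.77 and 6.97 at day 7, and 11.0, 10.2 and 8.48 at day 14. At day 28 it was 10.8, 8.76, 9.61 and 11.9. So on each injured array the ratio was below the uninjured value, and it was lowest on the day 7 arrays. Of the 13 injured arrays, the 5 with the brighter probe above 60000 units (a limit chosen after seeing the values) had ratios of 6.22 to 8.76, and the 8 below it had 9.00 to 11.9.

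In a fit over all 155 miRNAs with 2 such probes, the disagreement of the miR-21 probes was the largest in size of all 155 at day 7 (log2 -1.22 ± 0.12 SE, adjusted p = 2.32e-05 by limma), at day 14 (-0.72 ± 0.12 SE, adjusted p = 0.00768) and at day 28 (-0.67 ± 0.12 SE, adjusted p = 0.00837). At day 14 and day 28 miR-21 was the 1 miRNA called, which is 0.645% of the 155. At day 1 it ranked 15 of 155 (-0.68 ± 0.12 SE, adjusted p = 8.48e-04 by limma), and there 34.2%, and at day 7 31%, were called. The day 1 and day 7 arrays lie on the other slide than the uninjured ones, and slide and day cannot be told apart in those shares. This fit was chosen after the data had been seen.

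The scanner files mark spots whose value was scaled up from a scan at lower gain. The brighter miR-21 probe carried this mark on all 13 injured arrays and on 0 of the 3 uninjured ones, the 1 probe of 1759 with exactly this pattern, and 15 probes carried it on some array. The second miR-21 probe and the passenger's probes carried it on 0 arrays, and 0 of the 320 spots of each strand were saturated. The part of the low-gain scan in the smaller folds was not tested. Between day 7 and day 1, where both groups carried the mark, the difference between the probes was log2 -0.54 ± 0.12 (SE, adjusted p = 0.0349 by limma).

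**Figure D4:**
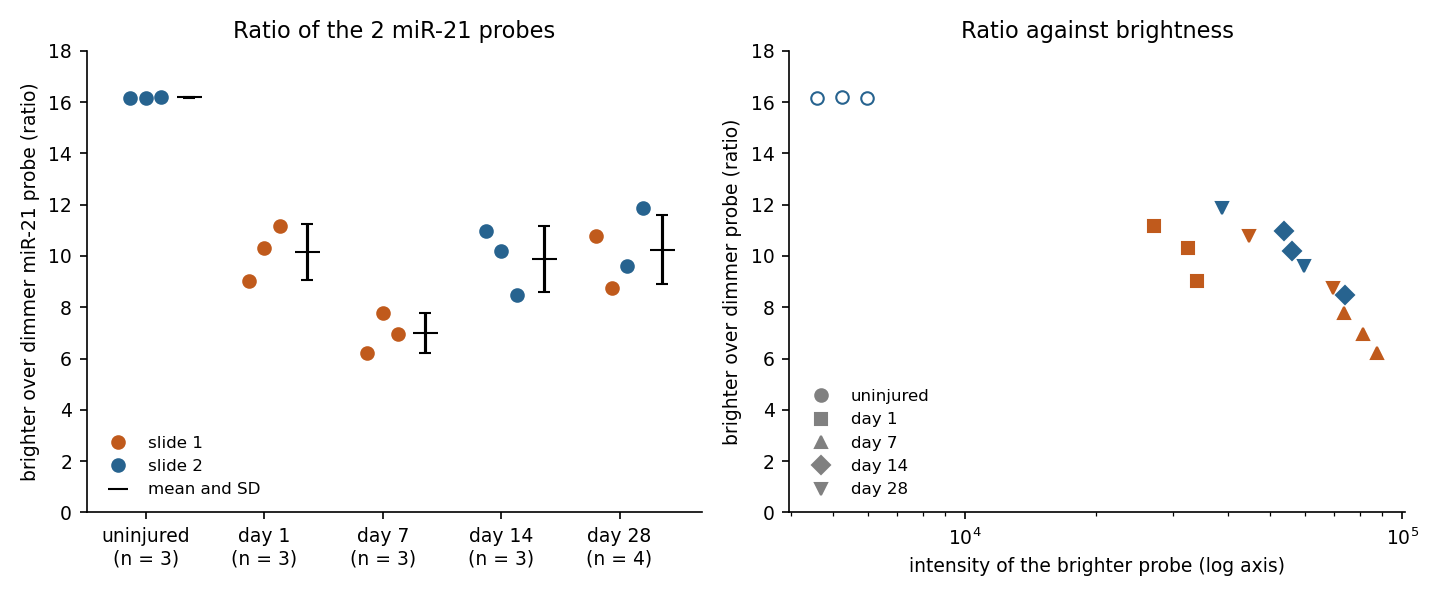
Ratio of the brighter to the second miR-21 probe on each of the 16 arrays, by group (left, with mean and SD in black) and against the intensity of the brighter probe on a log axis (right), coloured by slide; open circles on the right are the uninjured arrays, which were not read from the low-gain scan. The uninjured arrays sit at 16.2, and the injured ones between 6.22 and 11.9, lowest at day 7.

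miR-21* had 4 probes, 5 spots each. The brightest (A_54_P3447) gave the values above, a second (A_54_P3446) stood well above background on 12 of the 13 injured arrays, missing only day 28 replicate 4, and on 0 of 3 uninjured ones, and 2 more did so on 0 of 16 arrays. The second probe read 37.7, 34.2 and 36.0 units at day 1, 58.1, 33.6 and 37.4 at day 7, 21.8, 17.7 and 34.1 at day 14, and 19.0, 26.1, 28.2 and 12.3 at day 28. After scaling its values were -4.57, -5.34 and -5.39 at day 14 and -5.13, -5.39, -5.12 and -5.53 at day 28. At both days these overlap the lowest signals well above background on the uninjured arrays (-5.07, -5.22 and -5.62). Even set against the floor, the second probe gave 3.27-fold at day 1, 2.31-fold at day 7, 1.61-fold at day 14 and 1.41-fold at day 28. Each is below the bound given for that day, so those bounds hold for the brightest probe only. By this probe miR-21* changed by -1.22 ± 0.21 (SE) from day 1 to day 28 (adjusted p = 0.00101 by limma) and by -1.02 ± 0.23 (SE) from day 1 to day 14 (adjusted p = 0.00270 by limma), beside -1.15 and -0.82 by the brightest, and the difference between the probes was not tested. Its difference from uninjured passed at day 1, day 7 and day 14 but not at day 28 (adjusted p = 0.110 by limma). The median coefficient of variation between spots was 14.1% for the brightest passenger probe and 3.72% for the brighter guide probe.

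The 5 miRNAs most like each strand, by Pearson r over the 16 arrays, differed between the strands. For miR-21 they were miR-146b (r = 0.94) and miR-221 (0.93), both known from inflamed or injured vessels, miR-362-5p (0.90) and miR-362-3p (0.90), cut from a single hairpin, and miR-350 (0.89). miR-146b stood log2 2.06, 3.03, 2.87 and 3.27 above uninjured at day 1, 7, 14 and 28, and miR-221 stood 1.26, 1.81, 1.52 and 1.82 above it. miR-362-5p, a member of an X-linked miRNA cluster, stood 1.26, 2.59, 2.01 and 1.69 above it.

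For miR-21* they were miR-223 (r = 0.95), abundant in neutrophils and monocytes, miR-340-5p (0.95) and miR-340-3p (0.94), the strands of a single hairpin, miR-188-5p (0.90) and miR-19b (0.90), of the miR-17-92 cluster. miR-223 stood log2 4.10, 3.18, 3.00 and 2.44 above uninjured at day 1, 7, 14 and 28, and miR-340-5p stood 2.74, 2.30, 1.46 and 1.49 above it. On uninjured replicates 1 and 2 miR-340-5p sat at the floor, as did miR-188-5p on uninjured replicate 1, so they share floor values with miR-21*. The miRNAs most like each strand were picked for following it on these same arrays, so a shared course is no finding. The strands themselves correlated with r = 0.79 over the 16 arrays, and with r = 0.01 over the 13 injured arrays. These values describe the arrays, which share groups, slides and scaling, and the median r over the other 320 tested miRNAs was 0.08 for miR-21 and 0.17 for miR-21*. On the 13 injured arrays alone, r with miR-21 was 0.48 for miR-146b and 0.51 for miR-221, and r with miR-21* was 0.86 for miR-223 and 0.84 for miR-340-5p.

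**Figure D5:**
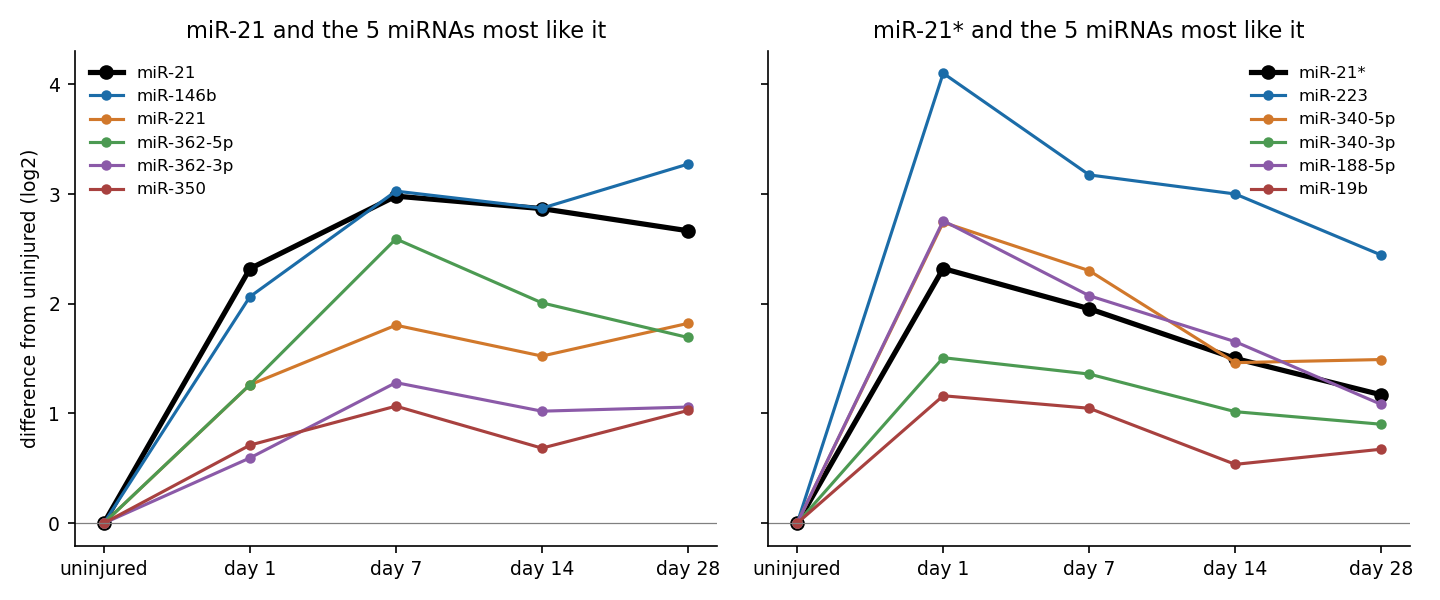
Difference from uninjured (log2) at day 1, 7, 14 and 28 for miR-21 with the 5 miRNAs most like it (left) and for miR-21* with the 5 most like it (right). Those most like miR-21 have their highest values at day 7 or day 28, and those most like miR-21* at day 1, as their choice by correlation favours. In uninjured artery the values of miR-21* rest on the floor, as do some of miR-340-5p and miR-188-5p.

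Other miRNAs linked to the same setting give a frame for these values. Of 8 injury-associated miRNAs other than miR-21, 6 rose and 0 fell at day 7 against uninjured, with a median log2 difference of 1.62 against 0.00 for all tested miRNAs, among them miR-146b (3.03), miR-155 (2.97) and miR-146a (2.45). In that comparison 27.4% of all tested miRNAs were called higher and 22.4% lower. At day 1 5 of the 8 rose and 1 fell, miR-31 (log2 -1.05, adjusted p = 0.00592 by limma), and 5 rose at day 14, 6 at day 28 and 0 fell at either. Of all tested miRNAs 32.4%, 39.3% and 26.2% were called in either direction at day 1, 14 and 28, and 19.6%, 20.2% and 16.8% were called higher. The list of miRNAs whose maturation SMAD proteins promote in human cells, to which miR-21 also belongs, had 2 of 7 members tested. These were miR-199a-3p (log2 1.14) and miR-199a-5p (1.11), and both rose at day 7. At day 1, when miR-21 was already higher, miR-199a-3p fell by 0.72 on the log2 scale (adjusted p = 0.00102 by limma) and miR-199a-5p stood at -0.51 (adjusted p = 0.0618). Of the 52 other tested strands with an asterisk, 12 rose and 11 fell at day 7 (median -0.23).

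Markers of cell types also changed after injury. Of 8 leukocyte miRNAs 7 were tested, 4 rose at day 1 and 5 at day 7, day 14 and day 28, and 0 fell against uninjured, while miR-147 was well above background on 0 arrays. Of all tested miRNAs 19.6% were called higher at day 1, 20.2% at day 14 and 16.8% at day 28. The summed scaled signal of the 8 was 2.98 to 3.09 on the uninjured arrays, 26.7 to 29.3 on those of day 1 and 15.7 to 20.5 on those of day 7. It was 14.5 to 21.4 on the day 14 arrays and 12.2 to 16.3 on the day 28 arrays. This sum was highest at day 1, and miR-223, which is in it, was the miRNA most like miR-21*. Signals were added without log2, so bright members such as miR-223 weigh most. The sum thus does not give the course of each member. Against uninjured, miR-142-3p stood at log2 3.07 at day 1 and 2.75 at day 7, and miR-142-5p at 2.68 and 2.27. By contrast, miR-155 stood at 0.90 and 2.97, and miR-342-3p at -0.18 and 1.26. miR-150 and miR-511 were not called at either day. The sum of the 3 mesenchymal miRNAs (miR-199a-3p, miR-199a-5p and miR-214) was 9.23 to 11.6 on the uninjured arrays, 5.19 to 6.67 on those of day 1 and 21.9 to 24.3 on those of day 7. It was 16.4 to 20.1 on the day 14 arrays and 15.0 to 16.8 on the day 28 arrays. Like miR-21, it was highest at day 7, but at day 1 it was below the uninjured arrays. The part of cell makeup in the course of either strand was not tested.

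Other markers moved after injury as well. The summed signal of 3 contractile smooth muscle miRNAs was 3.53 to 6.37 on the uninjured arrays, 2.94 to 5.14 on those of day 1, 1.54 to 1.80 on those of day 7 and 1.89 to 2.08 on those of day 28, and it was lowest on the day 14 arrays. At day 7 miR-143 fell by 1.67 and miR-145 fell by 1.92 on the log2 scale. Of the endothelial markers, miR-126-3p rose by log2 0.45 at day 7 and miR-126-5p was not tested. At day 7 against uninjured 0 of 3 erythroid miRNAs were called, beside 49.8% of all tested miRNAs. In that comparison 1 of 4 striated muscle miRNAs (miR-133a, -1.69), all 4 tested of 5 neuronal ones (miR-129-5p, -3.56) and 2 of 3 adipose ones (miR-193b, -2.34) fell. Of all tested miRNAs 22.4% were called lower there, so the count for striated muscle is near the share over all. The summed signal of the 3 adipose miRNAs was 8.37 to 11.5 on the uninjured arrays and 2.07 to 2.77 on the day 7 arrays, and that of the 5 neuronal ones was 0.98 to 2.43 and 0.12 to 0.18. How closely each list followed either strand was not tested.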

How the data were processed

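Each artery was measured on 1 single-colour Agilent array. The deposited scanner files hold the intensity of every spot (13715 per array) after background handling by the authors in Agilent Feature Extraction 9.5.1.1, per the file headers. The table of values in the deposit holds total gene signal on the same intensity scale (99.9% of values within 0.1%).

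The processed signal was averaged over spots without an outlier mark and divided by each array's 75th percentile over the 395 mouse probes well above background (at least 50% of spots) on all arrays. Values under 0.0181 (log2 -5.79) were set to it, log2 was taken, and the brightest probe stood for a miRNA. A miRNA was tested where each array of 1 or more groups showed it well above background (321 miRNAs), with limma 3.58.1 (R 4.3.3) in 1 model of 5 groups with Benjamini-Hochberg adjustment (called under 0.05). The strand balance was fitted likewise over 58 pairs. A simulation of day 7 against uninjured with 321 miRNAs recovered 89.7% of changes of log2 2 and 67.4% of log2 1. The number of arrays limits the precision. RNAfold 2.7.2 folded the hairpin.

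Named were both strands, their seed mates, the 5 miRNAs most like each, from each list the 3 tested members of lowest p at day 7 against uninjured, and 5 strand pairs. The result of 1 list is not reported here. The members, lists and tests were chosen with earlier results of these data known. Same-numbered arrays did not deviate together (r from -0.45 to 0.56, 8 of 30 pairs over 0.1), so replicate numbers were not used as pairs. Spots were read with version 1.17.8 of data.table. Alternatives varied scaling, background, filter, floor, probes, outliers, slide, replicate block, moderation and weights, and left out each array.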

Additional observations from a re-analysis of the deposited data

Results flagged for a closer look

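The effect of injury on miR-21 differed between day 7 and day 1, by log2 0.66 (adjusted p = 0.0268 by limma, the test of the difference itself). For miR-21* it differed between day 14 and day 1 (-0.82), between day 28 and day 1 (-1.15) and between day 28 and day 7 (-0.78). The strand balance differed between day 7 and day 1 (1.03), day 14 and day 1 (1.37) and day 28 and day 1 (1.50), by the same kind of test over 58 pairs. In the group of 4 arrays at day 28 no array stood far from the others for either strand or the balance (gap over range 0.35, 0.24 and 0.19, under the 95% limit of Dixon's test). The other groups, of 3 arrays, were not examined in this way.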

How the results depend on the processing

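The differences of miR-21 from uninjured kept their call under all alternatives (log2 1.67 to 4.20, highest adjusted p = 0.0171) and without each array in turn. Changed results follow, each as a log2 difference, and the cause was not tested. By the 75th percentile over all mouse probes, median scaling, quantiles and no scaling, day 7 minus day 1 of miR-21* turned positive (0.12, 0.12, 0.16 and 0.35) and its day 14 minus day 1 lost its call (-0.27, -0.41, -0.25 and -0.40). Its day 28 minus day 1 lost it in all of these but median scaling (-0.58, -0.62 and -0.76). For miR-21, day 14 minus day 1 passed with the 75th percentile over all probes (1.1005), the median (0.95), no scaling (0.97), the mean over probes (0.57), the second probe (0.59), the deposited value table (0.62) and array weights (0.71), and day 28 minus day 1 with the first of these (0.92), the median (0.73) and array weights (0.45). Its day 28 minus day 7 passed with the mean over probes (-0.59) and the second probe (-0.87). Its day 7 minus day 1 was lost by quantiles (0.25), which keep only the rank of a probe, and with no filter (0.66). With normexp background miR-21* lost its calls against uninjured at day 1 (0.68), 7 (0.44), 14 (0.12) and 28 (0.023) and with all days together (0.29), and its falls from day 1 to 14 (-0.56), 1 to 28 (-0.66) and 7 to 28 (-0.42). A floor 2 times as high ended its calls at day 14 (0.50) and 28 (0.18), and its second probe that at day 28 (0.49). Slide as a block ended day 14 minus day 1 (-0.78) and day 28 minus day 7 (-0.76) of miR-21*, slide 1 alone the latter (-0.76), and only the 2 groups compared the former (-0.82). Array weights made its day 14 minus day 7 pass (-0.58).

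Against uninjured, the strand balance followed the floor. At day 1 it was -0.0015 and became 1.66 with normexp, 1.00 and -1.001 with a floor 2 and 0.5 times as high, 1.65 by the mean over probes, -3.001 by total gene signal, 0.026 with slide as a block and 0.61, 1.29 and 0.68 with other probe pairs. With the lower floor day 7, 14 and 28 were lost (0.027, 0.37 and 0.50), and by total gene signal they reversed (-1.87, -1.54 and -1.41). Between later days, where nothing was called, signs turned with normexp (day 28 minus 14, -0.10), the mean over probes (day 14 minus 7, -0.12, day 28 minus 7, -0.22, day 28 minus 14, -0.10) and other probe pairs (day 14 minus 7, -0.090 and -0.16, day 28 minus 7, -0.15 and -0.081, day 28 minus 14, -0.011 and -0.063).

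With the replicate block the calls of both strands and of the balance were kept, for example that of miR-21 at day 7 against uninjured (log2 2.98). Together with slide it ended day 28 minus uninjured (1.34), day 14 minus day 1 (-0.98) and day 28 minus day 7 (-0.78) of miR-21*. Leaving out each array in turn gave 0.53 to 0.74 for day 7 minus day 1 of miR-21, 0.31 to 0.81 for day 14 minus day 1, -0.35 to 0.15 for day 14 minus day 7 and -0.47 to 0.033 for day 28 minus day 14. For miR-21* it gave -1.09 to -0.65 for day 14 minus day 1 and -0.73 to -0.30 for day 14 minus day 7, and for the balance -0.14 to 0.10 for day 1 minus uninjured.

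Calls over all miRNAs moved more: 10 to 198 against 104 at day 1, 45 to 200 against 160 at day 7, 72 to 179 against 126 at day 14 and 21 to 107 against 84 at day 28, against uninjured. Between days they were 78 to 203 (139) for day 7 minus 1, 13 to 164 (128) for day 14 minus 1, 20 to 171 (110) for day 28 minus 1, 0 to 130 (33) for day 14 minus 7, 24 to 140 (108) for day 28 minus 7 and 0 to 70 (49) for day 28 minus 14. The counts of 0, by limma, came with no scaling (31 and 19 miRNAs at unadjusted p under 0.05 for day 14 minus 7 and day 28 minus 14), replicate block and slide together (11 and 42), slide as a block (29, day 14 minus 7) and slide 2 alone (81, day 28 minus 14). With only miRNAs seen on all arrays miR-21* is not tested, and 2 of its probes gave no signal to test.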
